A study of Mus musculus with 4 samples.

Results

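The interferon regulatory factor (IRF) loci were examined in mouse blood progenitors for binding of the transcription factor RUNX1 and for the repressive histone mark H3K27me3. The 8 genes were Irf1, Irf2, Irf3, Irf4, Irf5, Irf7, Irf8 and Irf9, and a peak belonged to a locus when its summit lay inside the gene body or within 50 kb of it on the mm10 build with GENCODE vM21 genes. Of 24972 RUNX1 sites in all, 34 met this rule, and of the H3K27me3 peaks 9 of 6356 and 7 of 7233 did so. No site was shared between members.

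The cells were floating haematopoietic progenitors taken at day 2 of an in vitro culture of mouse embryonic stem cells. All 4 libraries came from cells that carry a dominant-negative FOS (dnFOS), a form of the AP-1 subunit FOS that blocks AP-1, under a Tet-on promoter, so that doxycycline (DOX) switches it on. The comparison asks where RUNX1 binds in the same cells when AP-1 is blocked. RUNX1 was measured by ChIP-seq in 1 library labelled as doxycycline-treated (+DOX) and 1 labelled as untreated (-DOX), which gave 21831 and 18389 peaks and are called here the +DOX-labelled and the -DOX-labelled list. The file of the library labelled +DOX carries a run name that says untreated, and the file of the library labelled -DOX a run name that says DOX. Every direction given here therefore follows the labels and turns round if the run names are right. The H3K27me3 libraries have titles and treatment labels that contradict each other, so neither was given a condition, and both are called by their titles, untreated and DOX. Their protocol names an antibody against RUNX1 although their antibody label is H3K27me3. Each condition had 1 library and the peak lists hold no read counts, so the depth is unknown, no difference between libraries could be tested, and all values are descriptions of these libraries.

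Members of this family bind a GAAA-containing element in promoters of interferon-responsive genes. Irf3 and Irf7 are the signal-activated inducers of type I interferon genes, Irf9 joins STAT proteins in the complex that responds to type I interferon, Irf1 is an activator induced by interferon, and Irf2 is its antagonist. Irf5 acts in inflammatory signalling of myeloid cells. Irf4 and Irf8 are the lymphoid and myeloid members that bind composite elements with the ETS factor PU.1, and Irf8 is a regulator of monocyte and dendritic cell development. RUNX1 is required for the emergence of blood cells. H3K27me3 is laid down by Polycomb complexes and marks silent developmental genes.

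The RUNX1 and H3K27me3 peaks divided the family. Irf1, Irf2, Irf3 and Irf9 held a RUNX1 summit within 1500 bp of an annotated start in both RUNX1 lists and no H3K27me3 summit in the window of either H3K27me3 list. Irf4 and Irf8 held the reverse, an H3K27me3 summit within 1500 bp of a start in both H3K27me3 lists and no RUNX1 summit in the window. Irf5 had H3K27me3 at its start in both lists together with a weak RUNX1 summit in the +DOX-labelled list, and Irf7 had neither mark at its start. The H3K27me3 peaks of Irf4 and Irf8 behind this division lay at or below the middle of their lists by -log10 q, whereas Irf5 had a peak at its start above the middle in both lists. When only peaks with a -log10 q of 5 or more were counted, Irf4 kept none in either list, Irf8 kept 1 in the library titled untreated, and only Irf5 kept an H3K27me3 summit at a start in both lists. The RUNX1 side changed as well at this cutoff. Irf9 lost its summit at a start in the +DOX-labelled list, with a -log10 q of 3.13, and Irf5 its only one, with 3.97. Irf1, Irf2 and Irf3 kept a RUNX1 summit at a start in both lists.

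**Figure D1:**
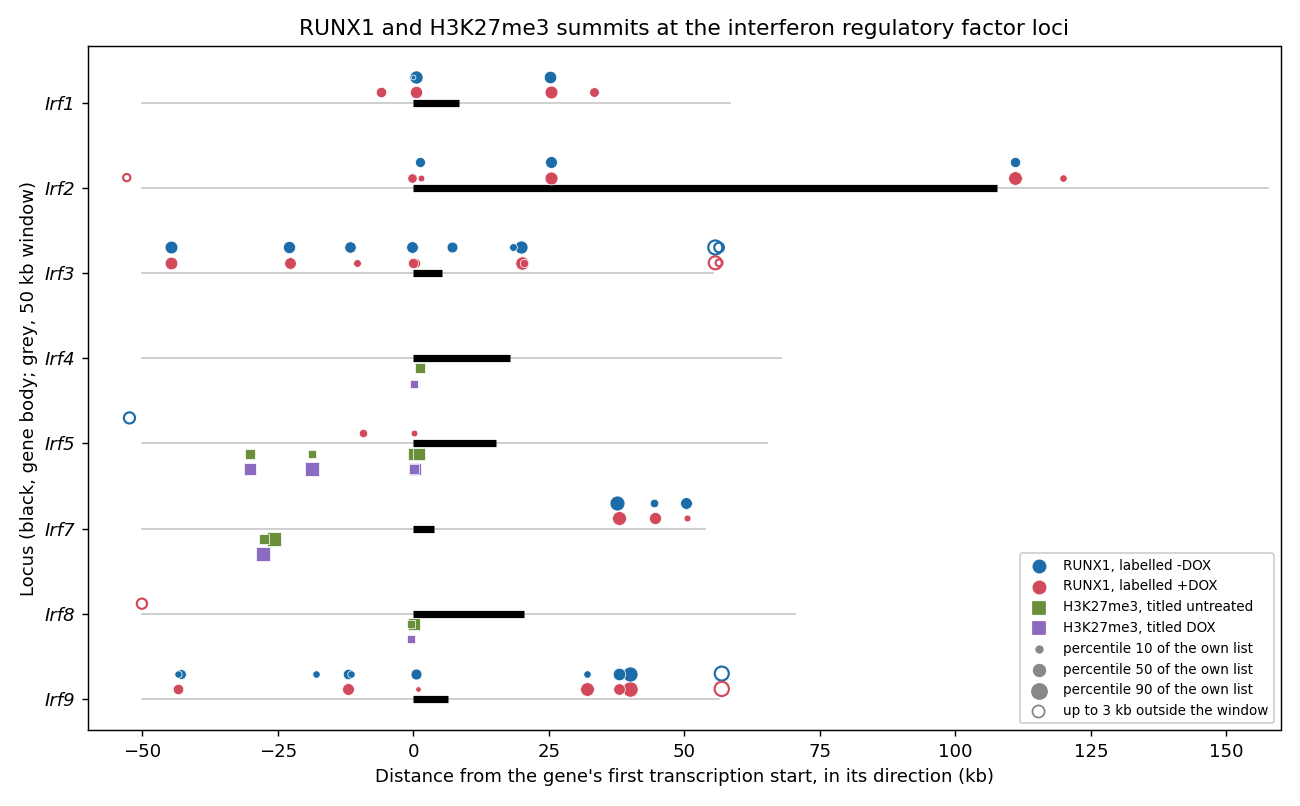
Summits at the 8 loci by distance from the first start of each gene in kb, with the gene body in black and the 50 kb window in grey. Circles are RUNX1 and squares H3K27me3 summits, in 1 row per library, the area grows with the percentile of -log10 q in the peak's own list, and open circles lie up to 3 kb outside the window. Irf4 and Irf8 have squares at the start and no filled circle, whereas Irf1, Irf2, Irf3 and Irf9 have circles at the start and no square.

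Read against all 21938 protein-coding genes, the RUNX1 counts of the family were near the background. A RUNX1 summit in the window was present for 5 of 8 members in the -DOX-labelled list, beside 73.5% of coding genes, and for 6 of 8 in the +DOX-labelled list, beside 75.7%. A summit at a start was present for 4 of 8 members, beside 43.4%, and for 5 of 8, beside 46.9%, and 4 of 8 had one in both lists, beside 40.2%. H3K27me3 summits lay in the windows of 4 of 8 members in both lists, beside 33.2% of coding genes in the library titled untreated and 35.3% in the library titled DOX. At starts, H3K27me3 was found for 3 of 8 members in either list, with a 95% Wilson interval of 13.7 to 69.4%, beside 11.7% and 11.1%. These 3 were the same genes, Irf4, Irf5 and Irf8, and 9.40% of coding genes had H3K27me3 at a start in both lists. The pattern of Irf4 and Irf8, no RUNX1 summit in the window and H3K27me3 at a start in both lists, was held by 295 coding genes or 1.34%, while 22.0% had no RUNX1 summit in the window of either list. That pattern was defined by what Irf4 and Irf8 showed in these same lists, so its share is a description and no support. No such share is given for the pattern of Irf1, Irf2, Irf3 and Irf9, so that pattern is not read as a trait of the family. The interval covers counting error over 8 genes only.

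**Figure D2:**
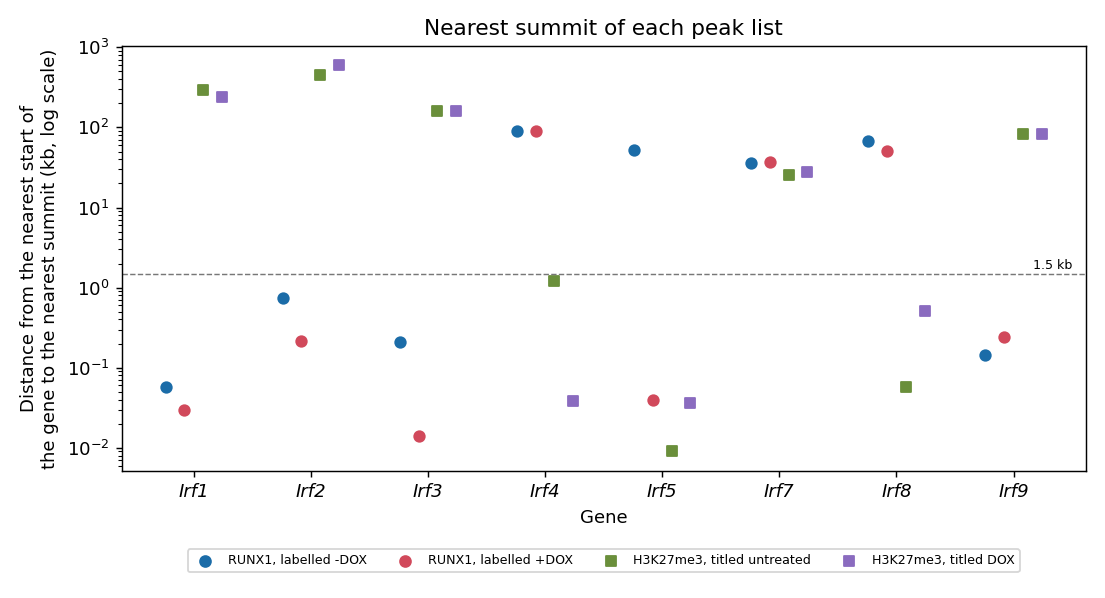
Distance in kb, on a log scale, from the nearest annotated start of each gene to the nearest summit of each of the 4 peak lists, with circles for RUNX1, squares for H3K27me3 and the 1.5 kb limit dashed. For Irf1, Irf2, Irf3 and Irf9 the H3K27me3 summits lie 82.8 to 598 kb away, and for Irf4 and Irf8 the RUNX1 summits lie 50.1 to 89.2 kb away.

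Irf8 (chromosome 8, 120736358 to 120756694, plus strand) had no RUNX1 site within 50 kb in either list, and hence no distal site assigned to it. The first site upstream lay 50.1 kb from the start, 85 bp beyond the limit of the window, with its summit at 120686273 in an intron of the gene model Gm20388. It was called only in the +DOX-labelled list, with a fold enrichment over background of 4.85 and a -log10 q of 6.76, which is percentile 37.6 of that list, where the percentile is the share of the list's peaks with an equal or lower -log10 q. It lay 874 bp from the start of the unclassified gene model Gm33142. The next site upstream, at the start of Cox4i1 68.0 kb from Irf8, was in both lists at percentiles 86.9 and 77.1 for the -DOX-labelled and the +DOX-labelled list. Downstream, no RUNX1 site was found before 327.0 kb past the end of the gene. The H3K27me3 summits sat 84 bp inside the gene and 535 bp before it in the library titled untreated, at percentiles 49.9 and 15.2, and 507 bp before it in the library titled DOX, at percentile 16.7. The peaks before the start overlapped between the lists.

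The sequence of the upstream site and of the 200 bases before the Irf8 start are shown because the site is the only RUNX1 call near the limit and the promoter lies beside H3K27me3. Capitals mark matches to TGTGGTT (RUNX) and TTGCNNAA (C/EBP) in the site and to TTCNNNGAA (GAS, an interferon-gamma-activated element) in the promoter, on either strand. All sequences are from the mm10 reference, 5′ to 3′.
Irf8 upstream site (chr8:120686173-120686372, plus strand): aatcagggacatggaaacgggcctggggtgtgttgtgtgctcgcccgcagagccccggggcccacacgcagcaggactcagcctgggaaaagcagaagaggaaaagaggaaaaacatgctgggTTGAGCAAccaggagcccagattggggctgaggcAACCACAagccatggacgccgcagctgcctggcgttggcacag
Irf8 promoter (chr8:120736158-120736357, plus strand): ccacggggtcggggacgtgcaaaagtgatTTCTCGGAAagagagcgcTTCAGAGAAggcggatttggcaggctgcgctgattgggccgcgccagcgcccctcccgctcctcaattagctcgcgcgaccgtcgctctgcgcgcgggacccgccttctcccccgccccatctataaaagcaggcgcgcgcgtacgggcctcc
The upstream site held the full RUNX heptamer on the minus strand, which none of the 34 sites inside the windows held. The GAS form was chosen after the promoter had been read.

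Irf4 (chromosome 13, 30749226 to 30766976, plus strand) was the member farthest from RUNX1. Its nearest site was at the start of Dusp22, 89.2 kb upstream, a weak peak at percentiles 13.4 and 10.8 of the -DOX-labelled and +DOX-labelled lists, and the first one downstream was 205.3 kb past the end of the gene. The H3K27me3 summit of the library titled untreated lay 1199 bp from a start in an intron, with a -log10 q of 4.71 and percentile 28.5, and that of the library titled DOX 38 bp from a start, with a -log10 q of 3.52 and percentile 25.9. The peaks were 148 and 74 bp wide and did not touch, and both lists place a call at the promoter region of Irf4. H3K27me3 calls were short, with a median width of 180 bp in the library titled untreated and 122 bp in the library titled DOX. Whether the mark lies at 1 common position therefore cannot be told from these calls. The 200 bases before the start held none of the motifs searched and are shown for comparison with the Irf8 promoter.
Irf4 promoter (chr13:30749026-30749225, plus strand): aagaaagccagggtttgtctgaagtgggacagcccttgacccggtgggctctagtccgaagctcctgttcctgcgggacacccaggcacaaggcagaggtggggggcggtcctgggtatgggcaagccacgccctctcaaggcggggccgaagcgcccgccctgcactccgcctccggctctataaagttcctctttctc

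Irf5 (chromosome 6, 29526625 to 29541871, plus strand) carried H3K27me3 and RUNX1 at 1 place. In the library titled untreated a peak of 771 bp covered the first start, at a fold of 5.22 and percentile 64.0. Its summit lay 92 bp inside the gene and 9 bp from the nearest annotated start. A second summit lay in an intron at percentile 45.6. The library titled DOX had summits 36 and 250 bp from a start, at percentiles 28.2 and 54.9. The RUNX1 site, 39 bp from a start, was called only in the +DOX-labelled list, at a fold of 3.93, a -log10 q of 3.97 and percentile 11.2. It was the only one of the 34 RUNX1 sites that overlapped an H3K27me3 peak, and it overlapped peaks of both lists. The second site of the locus, 9.4 kb upstream, was also called only in the +DOX-labelled list, at percentile 21.9, and a site of the -DOX-labelled list at percentile 45.8 lay 2.37 kb outside the window. The other H3K27me3 peaks of the locus lay upstream at Kcp, 2 in each list, and reached percentile 81.5 in the library titled DOX. The window of the RUNX1 site lies mostly in an untranslated region, so the 200 bases before the start are shown, with TGCGGT, a short RUNX form, in capitals. That match lies outside the RUNX1 peak, and the 200 bases around the site's summit held none of the motifs searched.
Irf5 promoter (chr6:29526425-29526624, plus strand): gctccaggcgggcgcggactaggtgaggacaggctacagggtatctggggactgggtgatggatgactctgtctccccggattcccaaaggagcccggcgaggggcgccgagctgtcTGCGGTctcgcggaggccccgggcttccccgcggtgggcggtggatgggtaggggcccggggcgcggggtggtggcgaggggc

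Irf1 (chromosome 11, 53770014 to 53778374, plus strand) had 5 RUNX1 sites. The highest one nearest to the gene lay in an intron, 392 bp from the first start, and was in both lists. Its fold was 6.46 and its percentile 67.5 in the -DOX-labelled list, against a fold of 5.53 and percentile 57.7 in the +DOX-labelled list. A second summit 58 bp upstream was called only in the -DOX-labelled list at percentile 1.57, under a peak of the other library. The sites 25.5 and 33.3 kb from the start lay in introns of the neighbouring gene Gm12216. The first was in both lists at percentiles 59.9 and 64.0, and the second only in the +DOX-labelled list at percentile 32.5. A site 6.0 kb upstream at Mir7671 was also called only in the +DOX-labelled list, at percentile 38.7. The intronic site and the sites at Gm12216 are shown, the latter chosen after their values were seen, with capitals for ETS motifs (CAGGAAG, with A or C allowed in the second place and A or G in the last), the PU.1 motif GAGGAAGT and TGTGGT.
Irf1 intron (chr11:53770306-53770505, plus strand): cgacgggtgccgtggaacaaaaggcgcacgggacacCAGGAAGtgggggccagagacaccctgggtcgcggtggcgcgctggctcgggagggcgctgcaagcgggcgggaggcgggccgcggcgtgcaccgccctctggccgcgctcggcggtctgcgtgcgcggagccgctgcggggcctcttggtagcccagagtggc
Irf1 downstream, 25.5 kb (chr11:53795369-53795568, plus strand): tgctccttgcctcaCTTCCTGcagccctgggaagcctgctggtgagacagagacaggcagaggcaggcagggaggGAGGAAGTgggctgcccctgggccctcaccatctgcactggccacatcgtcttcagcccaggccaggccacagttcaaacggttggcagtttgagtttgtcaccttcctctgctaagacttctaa
Irf1 downstream, 33.3 kb (chr11:53803175-53803374, plus strand): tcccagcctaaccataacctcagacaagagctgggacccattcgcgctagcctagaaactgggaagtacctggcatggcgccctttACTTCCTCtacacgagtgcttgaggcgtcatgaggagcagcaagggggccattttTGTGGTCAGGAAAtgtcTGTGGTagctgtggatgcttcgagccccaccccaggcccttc
In the last of these, a TGTGGT and an ETS motif adjoin without a gap, and a second TGTGGT follows. The 2 sites at Gm12216 held 2 of the 3 PU.1 motifs found over all 34 sites.

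Irf2 (chromosome 8, 46739732 to 46847458, plus strand) had 5 RUNX1 sites and no other coding gene in its window. A site 1274 bp inside the gene was in both lists, at percentile 36.0 in the -DOX-labelled list and 11.3 in the +DOX-labelled list. The summit of the -DOX-labelled list lay outside the peak of the +DOX-labelled list there. A site 215 bp upstream was called only in the +DOX-labelled list, at percentile 30.3, and its nearest start was that of the non-coding Gm16675, 2 bp away. An intronic site 25.4 kb into the gene was in both lists at percentiles 53.6 and 64.9. Past the end of the gene, a site 111.0 kb from the start was in both lists, at percentile 37.3 in the -DOX-labelled list and 73.3 in the +DOX-labelled list, and one at 119.8 kb was called only in the +DOX-labelled list at percentile 15.3. The promoter and intronic sites are shown, both chosen after their values were seen. Capitals mark GGAANNGAAA (EICE, the composite PU.1 and IRF element), GAAANNGAAA (IRF) and TTCNNNGAA (GAS) in the first, and the PU.1 motif GAGGAAGT with AGATAA, the element of GATA factors, in the second.
Irf2 promoter site (chr8:46739417-46739616, plus strand): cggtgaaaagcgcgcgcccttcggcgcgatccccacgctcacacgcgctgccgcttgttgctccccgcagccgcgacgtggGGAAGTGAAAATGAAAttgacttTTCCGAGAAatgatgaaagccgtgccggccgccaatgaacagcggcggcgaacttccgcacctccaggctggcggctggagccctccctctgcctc
Irf2 intron (chr8:46765079-46765278, plus strand): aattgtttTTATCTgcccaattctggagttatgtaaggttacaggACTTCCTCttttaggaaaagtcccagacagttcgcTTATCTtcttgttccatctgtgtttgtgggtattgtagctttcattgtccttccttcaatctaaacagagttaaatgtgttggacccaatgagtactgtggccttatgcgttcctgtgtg
The promoter site held the only IRF and the only EICE match among the 34 sites, and the matches overlap in 1 run of 16 bases. The intronic site held 2 GATA motifs and the third of the PU.1 motifs.

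Irf3 (chromosome 7, 44997648 to 45002848, plus strand) lay among 7 other coding genes and had 10 RUNX1 sites, more than 97.0% of coding genes. Only 2 of the 10 were nearest to Irf3. The first, 14 bp from a start, was called in the +DOX-labelled list at a fold of 4.25 and percentile 38.7, and its peak overlapped the flank of a peak of the other list, which ended before the summit. The second, 7.1 kb from the first start in an intron of the neighbouring Scaf1, was called only in the -DOX-labelled list at a fold of 4.74 and percentile 42.8. Upstream of the first start, the site at the shared promoter with Bcl2l12 was in both lists at percentiles 51.2 and 37.6. The strongest neighbour was at Rras, at percentiles 66.2 and 69.8. The site at 7.1 kb is shown as the highest that was nearest to Irf3, with its ETS motif in capitals.
Irf3 downstream site (chr7:45004626-45004825, plus strand): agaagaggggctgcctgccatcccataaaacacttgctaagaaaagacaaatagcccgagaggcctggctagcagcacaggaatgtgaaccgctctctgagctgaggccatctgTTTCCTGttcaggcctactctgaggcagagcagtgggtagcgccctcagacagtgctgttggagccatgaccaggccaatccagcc

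Irf9 (chromosome 14, 55603571 to 55610030, plus strand) lay among 13 other coding genes and had 9 RUNX1 sites. One of them was nearest to Irf9, 143 bp from a start in the untranslated region. It was in both lists, with a fold of 5.17 and percentile 43.9 in the -DOX-labelled list against 3.46 and 4.64 in the +DOX-labelled list. Only the Rassf7 site at Irf7 had a lower difference than its -39.2 percentile points among the 18 shared sites. The summits joined in the Irf9 site lay at 55604128 in the -DOX-labelled list and at 55604332 in the +DOX-labelled list. Their peaks overlapped only in part, so the ranks do not describe 1 common position. Of the other 5 shared sites of the locus, 4 ranked higher in the +DOX-labelled list, with 15.7 against 74.0 at Ipo4, a nuclear import receptor gene, and 91.2 against 94.6 at Tm9sf1, the highest rank at any of the loci. At Ipo4 the summit of the +DOX-labelled list lay outside the peak of the -DOX-labelled list. The window of the Irf9 site lies wholly in the untranslated region and is not shown.

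Irf7 (chromosome 7, 141262706 to 141266481, minus strand) had no summit of either kind at its start. Its 3 RUNX1 sites lay 37.6, 44.6 and 50.4 kb downstream, at Phrf1, at Mir210 and at Rassf7, and all were in both lists. Phrf1 had percentiles 89.7 and 76.3, Mir210 23.1 and 55.3, and Rassf7 52.4 and 12.3. The H3K27me3 summits, 25.6 to 27.7 kb upstream, lay in coding exons of Drd4, a dopamine receptor gene, at percentiles 78.7 and 35.5 in the library titled untreated and 69.4 in the library titled DOX.

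Of the 34 sites, 18 were in both RUNX1 lists, which is 52.9% (95% Wilson interval 36.7 to 68.5) beside 56.8% of all RUNX1 sites. Another 7 were called only in the -DOX-labelled list, 20.6% (10.3 to 36.8) beside 14.8%, and 9 only in the +DOX-labelled list, 26.5% (14.6 to 43.1) beside 28.4%. The intervals hold the share over all sites in each class. The lists differ in length, and cut to equal length they gave 10 sites only in the -DOX-labelled and 7 only in the +DOX-labelled list. When a site counted as shared if any peak of the other list overlapped its peak, 21 sites were shared. The sites called in 1 library were weak, at percentiles 1.57 to 48.8 (median 17.8) in the -DOX-labelled list and 11.2 to 38.7 (median 22.3) in the +DOX-labelled list. Over all RUNX1 sites these medians were 23.1 and 27.2. Among the 18 shared sites, 9 ranked higher in each list, and the median difference in percentile, +DOX minus -DOX, was 0.727 with a range from -40.1 to 58.3. All shared sites had a median difference of 1.83 and an interquartile range from -7.04 to 15.5. The sites at starts of members in both lists, those of Irf1, Irf2 and Irf9, ranked higher in the -DOX-labelled list, and so did the Irf3 promoter site shared with Bcl2l12. At Irf2 and Irf9 the -DOX-labelled summit lay outside the +DOX-labelled peak, so those ranks may not describe 1 common position. The 2 other shared sites of Irf2, farther from its start, ranked higher in the +DOX-labelled list. These are few sites, read after their values were seen, and over all 18 shared sites the directions were 9 and 9. The share over all shared sites at starts is not given here, so no direction is read for promoters of members. If the run names are right and the labels are not, each of these directions is exchanged.

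**Figure D3:**
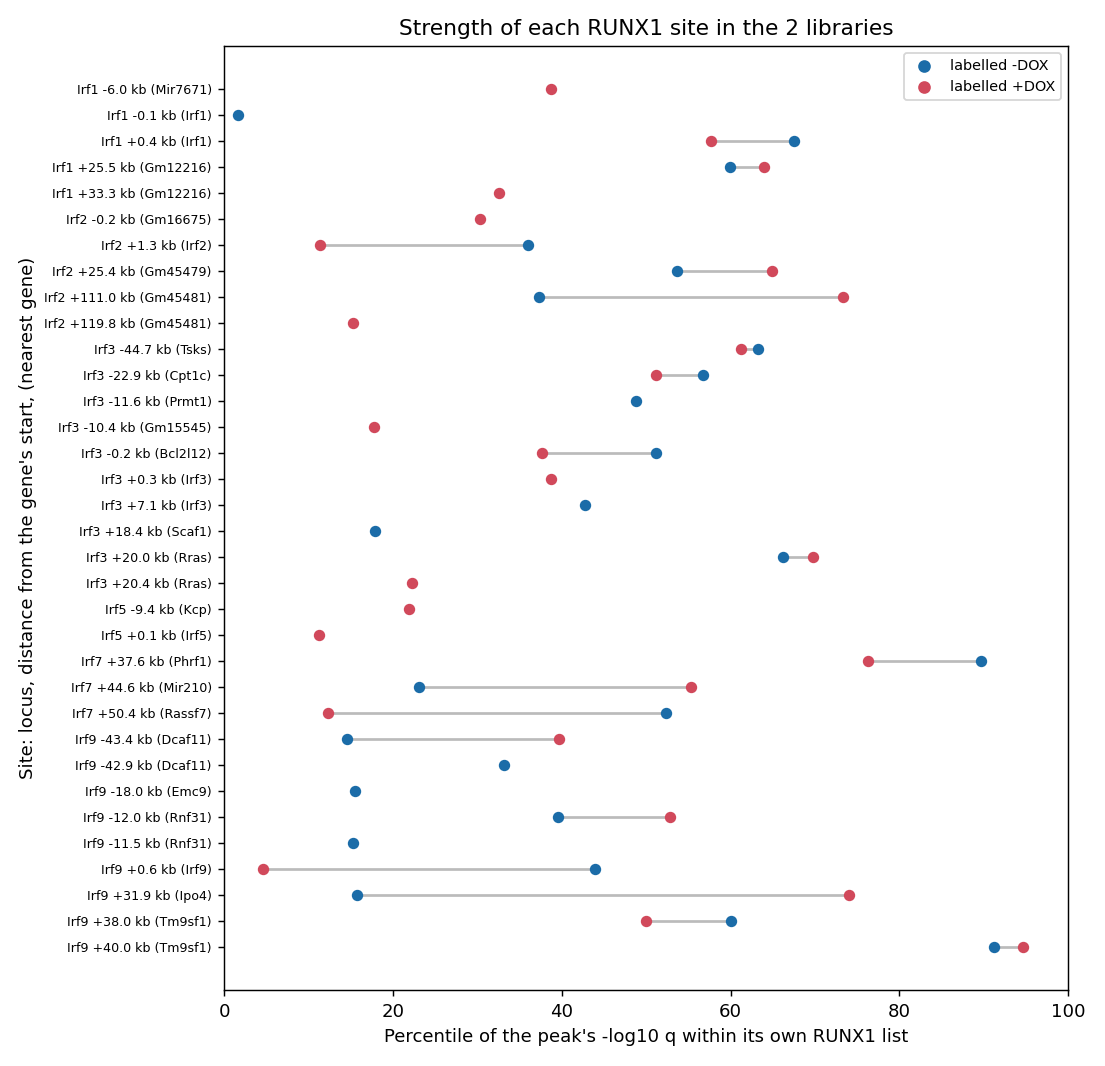
Percentile of -log10 q in the own list for each of the 34 RUNX1 sites, with the -DOX-labelled list in blue and the +DOX-labelled list in red, joined by a line where both lists hold the site. The sites are ordered by locus and by distance from the gene's start, and single points, the sites of 1 library, all lie below percentile 50.

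Most sites were promoter sites of neighbouring genes. Within 1500 bp of some annotated start lay 29 of the 34 sites, and 27 were nearest to a gene other than a member. The share of all RUNX1 sites within 1500 bp of a start is not given here, so these counts are not read as a trait of the IRF loci. Only 7 were nearest to a member, of which 3 were in both lists and 2 in each list alone. With non-coding starts left aside, 12 were nearest to a member. The 5 sites farther than 1500 bp from every start were those at Irf1 33.3 kb, Irf2 111.0 and 119.8 kb, Irf3 7.1 kb and Irf5 9.4 kb upstream, and of these only the one at Irf2 111.0 kb was in both lists. The share in both lists over all RUNX1 sites that far from a start is not given here, so nothing is read from this count. The most sites, 10 and 9, were at Irf3 and Irf9 with 7 and 13 coding neighbours, and the loci without a site, Irf8 and Irf4, had 1 and 2 neighbours, but Irf7 had 3 sites beside 7 neighbours, and Irf2 had 5 with none. A coding gene had a median of 3 sites. Near the limit of the window, the Rassf7 site at Irf7 lay 3.42 kb inside it and the Tsks site at Irf3 5.28 kb inside, whereas the Irf8 upstream site, Mdp1 at Irf9 and Prr12 at Irf3 lay 85, 411 and 546 bp outside.

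Motifs were counted in the 200 bases around each site's summit on both strands, with each motif's share over all RUNX1 sites beside it. The RUNX heptamer TGTGGTT was in 0 of 34 sites, which allows a share of up to 10.2% by its 95% Wilson interval, beside 14.2% of all RUNX1 sites and 6.02% of those within 1500 bp of a start. The short forms TGTGGT and TGCGGT, chosen after that count, were in 9 sites or 26.5%, beside 37.4% of all and 27.8% of start sites. ETS motifs were in 26.5%, beside 29.9%, and the PU.1 motif, which overlaps no listed ETS form, in 8.82% (3.05 to 23.0), beside 4.66%. The AP-1 motifs TGACTCA and TGAGTCA were in none, beside 4.97% of all and 2.63% of start sites. GATA motifs were in 5.88%, beside 11.7%, and the C/EBP motif TTGCNNAA in 5.88%, beside 6.46%. IRF and EICE matches, which overlap each other, were each in 2.94%, beside 1.53% and 1.64%. GAS matches, whose form was chosen after the promoters were read, were in 11.8% (4.67 to 26.6), beside 4.04%. In RefSeq promoters (GRCm38.p6), which run from 250 bases before to 50 after a gene's start, 8.30% of 32851 held a GAS match, and those of Irf1, Irf2 and Irf8 were among them. The share over start sites lay inside the interval of the IRF loci for every motif but PU.1 and GAS, for which it was lower, at 2.38% and 2.89%.

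**Figure D4:**
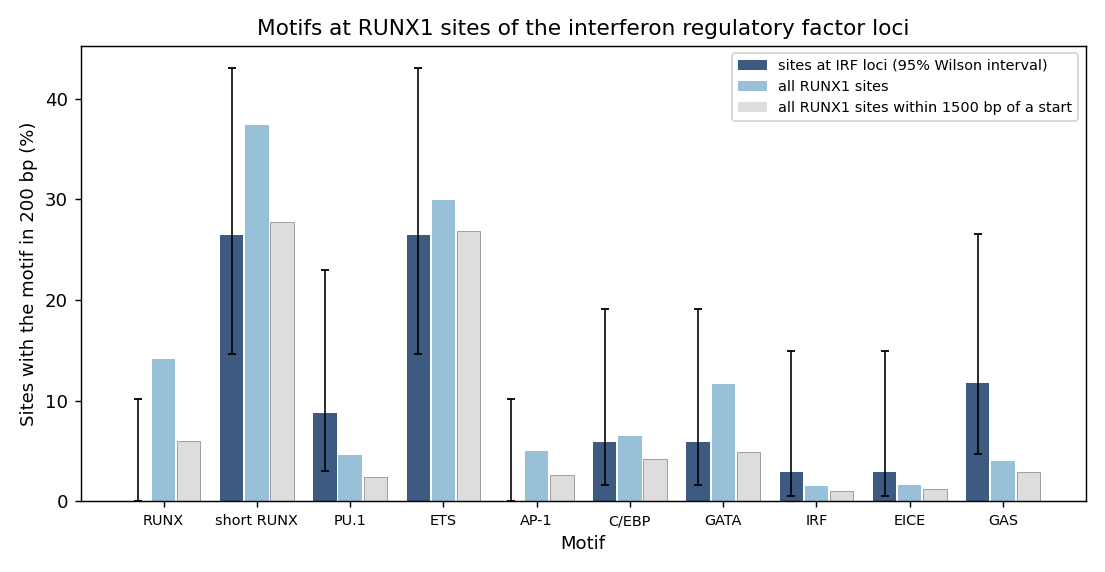
Percent of RUNX1 sites with each motif in 200 bp, for the 34 sites at IRF loci with 95% Wilson intervals, for all RUNX1 sites and for all RUNX1 sites within 1500 bp of a start. RUNX and AP-1 have no match at the IRF loci, and their intervals reach 10.2%.

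The genes that act before and after the family were read in the same way. The 8 genes of interferon receptors and JAK-STAT signalling read here (Ifnar1, Ifnar2, Ifngr1, Ifngr2, Jak1, Jak2, Tyk2 and Stat2) all had a RUNX1 summit at a start in both lists, beside 40.2% of coding genes. None had H3K27me3 at a start, beside the 11.7% and 11.1% of coding genes that did. Of 13 interferon-stimulated genes found in the annotation, none had RUNX1 or H3K27me3 at a start in any list, and 6 had no RUNX1 summit in the window, beside 22.0% of coding genes, among them Ifit2, Ifit3 and Mx1. Isg15, a ubiquitin-like protein induced by interferon, had 8 sites in its window, the nearest 2723 and 1820 bp from its start in the -DOX-labelled and +DOX-labelled lists. Of 15 partners and activators of IRF proteins, 7 had a RUNX1 summit at a start in the -DOX-labelled list and 10 in the +DOX-labelled list, 6 of them in both, beside 43.4% and 46.9% of coding genes in the lists and 40.2% in both. Spi1, which encodes PU.1, was one of these with 8 sites. H3K27me3 at a start was found for 4 of the 15 in the library titled untreated and 3 in the library titled DOX. In both lists it was found for 3, Batf3, Ikzf3 and Irf2bpl, beside 9.40% of coding genes. Batf3, the partner of Irf8 in dendritic cells, also had a RUNX1 summit 48 and 64 bp from a start in the -DOX-labelled and +DOX-labelled lists, and Irf2bpl had one at a start in the +DOX-labelled list only. Of 9 blood progenitor genes, 6 had RUNX1 at a start in both lists, beside 40.2% of coding genes. Cd34 and Ptprc had no RUNX1 summit at a start in either list, and Kit had none in its window. None of the 9 had H3K27me3 at a start in both lists, although Gata2 had it in the library titled DOX. These counts do not establish the identity of the cells. Of 9 genes of other lineages, 6 had H3K27me3 at a start in both lists, beside 9.40% of coding genes, and 2, Pax6 and Foxa2, had RUNX1 at a start in both. Peaks are not expression, and no RNA was measured in these libraries.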

How the data were processed

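The deposited files are 4 MACS2 peak lists on mm10, 1 per library. Per the labels, the authors aligned reads with Bowtie2 2.2.9 and called peaks with MACS2 2.1.1. The study's methods name another Bowtie2 version. They describe removal of PCR duplicates and then peak calling at a q-value threshold of 0.05, and name no input control. In the deposited lists, the fold is a ratio of the summit to MACS2's local background, and significance is given as −log10 p and −log10 q.

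RUNX1 summits of both lists were extended by 200 bp and merged into sites, a site being shared when both lists had a summit in it. Distances were taken to all transcript starts of GENCODE vM21. Ranks are percentiles of −log10 q within a list, since lists of unknown depth cannot be compared by value. With 1 library per condition there was no test, and Wilson intervals (95%) cover counting error only. The 8 members and the gene lists were chosen with earlier results of these data known. All peaks nearest to a member are named, and of the others the highest of each locus or those singled out after their values were seen. Mx2, 1 of 14 interferon-stimulated genes listed, is not a coding gene in this annotation and was left out. Some genes of the lists are not reported here. Scripts ran in Python 3.11.15 with numpy 2.4.6 and were tested on simulated data.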

Additional observations from a re-analysis of the deposited data

How the results depend on the processing

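Of 64 alternative values, 44 kept to the main value within the limits set and 20 moved. Some of the 44 could not have moved, such as those for distal sites nearest to Irf8. The sites at the loci fell from 34 to 13 with a 10 kb window and rose to 60 with 100 kb, and the H3K27me3 peaks fell from 9 and 7 to 5 and 4 with 10 kb. A −log10 q of at least 5 also gave 5 and 4 H3K27me3 peaks and left 25 RUNX1 sites. It left 4 members, in place of 5, with a RUNX1 summit at a start in either list. For H3K27me3 at a start in either list it left 2 members, in place of 3, and of these only Irf5 had it in both. Counting only summits nearest to a member left 7 sites, 3 in both lists, 2 only in the -DOX-labelled list and 2 only in the +DOX-labelled list, and 5 and 4 H3K27me3 peaks. Extending summits by 100 bp gave 15 sites only in the +DOX-labelled list and 11 only in the -DOX-labelled list, since a narrower window joins fewer summits. ETS motifs were in 11.8% of sites with 100 bp windows and in 44.1% with 400 bp. With lists cut to equal length, the sites of 1 list were 10 for -DOX and 7 for +DOX, the reverse order of 7 and 9. No distal site was nearest to Irf8 under any alternative run at its 50 kb window. These alternatives could not add a summit to a window that held none, so this result was fixed in advance. Windows of 100 and 200 kb, added after the data were seen, held 2 and 7 RUNX1 sites around Irf8 and 1 and 1 around Irf4. The depth is unknown, so a locus without a peak is one without a call and not one shown to lack RUNX1 or H3K27me3. No paired analysis was possible because each condition had 1 library, and none could be left out.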
